A study of Homo sapiens with 6 samples.

Results

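The spliceosome genes outside the PRP19 complex were taken from the annotation deposited with the expression tables. A gene was a member when its row carried the KEGG term Spliceosome. DDX, DHX and HSPA genes were excluded, as were 11 genes given by name, CDC5L and PRPF19 among them. Of 20030 genes, 133 carried the term, and 108 remained as members after 9 DDX and DHX genes, 6 HSPA genes and 10 of the named genes were left out. The rule itself used no measured value, but it was set with earlier results of these data known.

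The libraries were poly(A) RNA sequencing of cells labelled NCI-H929, a multiple myeloma cell line, made to ask which transcripts change when IGF2BP1, an RNA-binding protein that reads m6A marks, is reduced. The 3 IGF2BP1-KD libraries came from cells carrying a lentiviral shRNA against IGF2BP1, and the 3 IGF2BP1-NC libraries from cells carrying the negative control vector. The shRNA vector carried puromycin resistance, and the sources used here do not say which of the study's shRNAs was in the sequenced cells. No source used here says that the libraries of a group came from separate cultures, so the p-values measure the spread between these libraries, which may be technical.

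The spliceosome removes introns from pre-mRNA. The U1 small nuclear ribonucleoprotein (snRNP) recognises the 5′ splice site and the U2 snRNP the branch point, after which the U4/U6.U5 tri-snRNP joins and the particle is rearranged into its catalytic form. SR proteins and heterogeneous nuclear ribonucleoproteins (hnRNPs) bind exons and introns and influence which sites are used.

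The libraries held 16885449 to 18112179 counts assigned to genes. Levels are given as FPKM, fragments per kilobase of transcript scaled to sequencing depth. IGF2BP1 itself stood at 48.1, 43.7 and 49.1 FPKM in IGF2BP1-NC and at 13.5, 12.9 and 12.8 FPKM in IGF2BP1-KD (log2 fold change -1.85, SE 0.065, edgeR adjusted p = 4.8e-08). The cell label was checked against marker genes. Of 14 plasma cell markers, 7 had at most 3 counts in every library, among them CD38, IRF4 and TNFRSF17, and 3 exceeded 1 CPM (a count scaled to library size) in every library. All 17 erythroid markers did, and embryonic globin HBE1 reached 5519 to 6667 FPKM. The summed erythroid level overlapped between groups, at 8953 to 10947 CPM in IGF2BP1-NC and 9767 to 10725 CPM in IGF2BP1-KD. The marker levels thus go against the label, which is kept here as a name only, and their part in the results was not tested. In RNA from whole cultures, fewer cells with a transcript and less of it per cell cannot be told apart.

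Spliceosome transcripts that changed were mostly lower in IGF2BP1-KD. Of the 105 members that passed the filter on low counts, 25 were lower at an adjusted p under 0.05 (23.8%, against 14.5% of all 11994 tested genes) and 4 were higher (3.81%, against 13.7%). In either direction the members were called about as often as other genes, with 29 of 105 (27.6%, against 28.2%). Members were abundant, with a median mean level of 7.20 log2 CPM against 5.13 for all tested genes, so the same counts were made among genes of at least 5 log2 CPM, a comparison added after the calls had been seen. There, 24 of 96 members were lower (25%, against 17.1% of 6296 genes) and 4 were higher (4.17%, against 13.1%), and 28 were called in either direction (29.2%, against 30.2%). All adjusted p-values are from the quasi-likelihood test of edgeR, adjusted by the Benjamini-Hochberg method over all tested genes. These shares are descriptions of the list, for which no test was made.

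The changes were small. No tested member passed the threshold with a 2-fold change, against 4.73% of all tested genes but 0.794% of those of at least 5 log2 CPM, so that a count of 0 is near the share at the members' own level. The median log2 fold change was -0.061 over members, -0.0048 over all tested genes and -0.023 over those of at least 5 log2 CPM. Below 0 lay 71 members, and 34 lay above. Of all tested genes, 6081 lay below and 5913 above, and of those of at least 5 log2 CPM, 3433 and 2863. The members' median became -0.095 without IGF2BP1-NC replicate 1 and -0.031 with upper-quartile factors, which moved the median of all tested genes to 0.026. Measured from the mean of the IGF2BP1-NC libraries, the members' median log2 CPM stood at -0.063, 0.020 and 0.025 in IGF2BP1-NC and at -0.074, -0.051 and -0.087 in IGF2BP1-KD. The groups overlapped by this measure, because IGF2BP1-NC replicate 1 lay within the IGF2BP1-KD range. Members took 2.43%, 2.49% and 2.52% of the counts in IGF2BP1-NC and 2.36%, 2.41% and 2.32% in IGF2BP1-KD, shares that did not overlap. CPM values of the groups did not overlap for 47 of 105 members (44.8%), close to 45.6% of all tested genes. At 5 log2 CPM or more the shares were 46.9% of members and 48.3% of tested genes. Among the 29 called members, 28 had separate CPM ranges and SNRPF had overlapping ones. Called members were picked by a test on these same libraries, so their separation is largely set by that choice. It adds no separate weight to the calls, and no share over all called genes is given here.

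Among called members of at least 3 log2 CPM, the largest falls were those of SRSF3, SRSF7, SNRPA and SNRPA1. Their promoters are shown so that the sequence at these genes can be read beside their levels. Each runs from 250 bases before the RefSeq start to 50 bases after it (GRCh38.p14), 5′ to 3′ on the gene's strand. Capitals mark 4 motifs on either strand, namely CCAAT boxes, the GC box GGGCGG, the TATA box TATAAA and the ETS-type site CCGGAAGT. The windows are chr6:36594112-36594411 (plus strand) for SRSF3, chr2:38751445-38751744 (minus) for SRSF7, chr19:40750953-40751252 (plus) for SNRPA and chr15:101295199-101295498 (minus) for SNRPA1.
SRSF3: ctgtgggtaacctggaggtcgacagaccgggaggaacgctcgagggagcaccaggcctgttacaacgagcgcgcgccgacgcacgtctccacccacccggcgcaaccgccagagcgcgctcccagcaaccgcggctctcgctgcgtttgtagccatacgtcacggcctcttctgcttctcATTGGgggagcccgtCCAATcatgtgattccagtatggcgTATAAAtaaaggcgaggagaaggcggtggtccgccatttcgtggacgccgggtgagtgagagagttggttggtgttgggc
SRSF7: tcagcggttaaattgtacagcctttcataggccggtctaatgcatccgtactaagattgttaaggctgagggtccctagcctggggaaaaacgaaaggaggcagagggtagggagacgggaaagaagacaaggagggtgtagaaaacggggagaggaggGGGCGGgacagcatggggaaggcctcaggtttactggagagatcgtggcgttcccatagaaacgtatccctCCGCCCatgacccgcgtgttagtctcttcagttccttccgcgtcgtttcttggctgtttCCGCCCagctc
SNRPA: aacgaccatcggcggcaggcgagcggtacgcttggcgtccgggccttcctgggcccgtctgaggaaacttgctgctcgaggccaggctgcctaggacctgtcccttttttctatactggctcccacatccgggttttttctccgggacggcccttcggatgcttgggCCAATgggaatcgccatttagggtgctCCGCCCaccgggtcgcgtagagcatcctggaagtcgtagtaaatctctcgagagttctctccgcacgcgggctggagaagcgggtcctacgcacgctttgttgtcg
SNRPA1: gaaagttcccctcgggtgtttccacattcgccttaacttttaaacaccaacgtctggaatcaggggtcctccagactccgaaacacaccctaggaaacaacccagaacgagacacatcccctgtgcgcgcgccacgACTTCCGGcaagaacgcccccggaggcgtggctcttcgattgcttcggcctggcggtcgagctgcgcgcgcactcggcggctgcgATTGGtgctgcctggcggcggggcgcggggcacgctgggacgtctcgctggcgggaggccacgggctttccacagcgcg

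The SRSF3 promoter held TATAAA beginning 30 bases before the start and CCAAT matches 70 and 55 bases before it. That of SRSF7 held GGGCGG matches 91 and 20 bases before the start and 1 after it, and no CCAAT. SNRPA had CCAAT 83 and GGGCGG 56 bases before the start, and SNRPA1 had CCAAT 29 and CCGGAAGT 114 bases before it. Promoters were matched for 92 of the 108 members, and 7 motifs chosen after the calls were known were searched on both strands. CCGGAAGT was found in 27 of 92 member promoters (29.3%), against 4.44% of all 27305 promoters and 9.22% of those of tested genes. Its share was alike in lower members (29.2% of 24) and in uncalled members (29.5% of 61), so it did not separate the genes that fell. TATAAA was in 6.52% of members, against 12% of all promoters and 5.57% of those of tested genes. It was in 4 of 24 lower members (16.7%) and 2 of 61 uncalled members (3.28%). CCAAT was in 37% of members, against 35.7% of all promoters and 37.2% of those of tested genes. Its share was 45.8% in lower and 32.8% in uncalled members. These differences rest on few promoters and were not tested. GGGCGG was in 64.1% of members, above all promoters (44.6%) and below those of tested genes (70.5%). CACGTG was likewise between them, at 8.70% against 7.43% and 10.4%, and so was TGACGTCA, at 3.26% against 1.98% and 3.37%. The longer YY1 motif was in 2.17% of members, against 0.916% of all promoters and 2.15% of those of tested genes. A match is a description of the letters and does not show that a factor binds.

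The SR protein family held 2 of the 4 falls whose promoters are shown, and also a rise. Of 12 tested SRSF and TRA2 genes, 4 were lower, 1 was higher and 7 were not called. Among all tested genes, 14.5% were lower and 13.7% were higher. The classes are small, and no class was tested as a set. SRSF3 (chromosome 6: 36594362 to 36605600) encodes a small SR protein that also acts in mRNA export. Its level was 137, 139 and 142 FPKM in IGF2BP1-NC and 91.6, 94.8 and 88.1 FPKM in IGF2BP1-KD. Every IGF2BP1-KD library lay far below every IGF2BP1-NC library, and the transcript fell by 34.9% (log2 fold change -0.62, SE 0.059, edgeR adjusted p = 6.48e-05).

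SRSF7 (chromosome 2: 38743599 to 38751494), the zinc-knuckle SR protein closest to SRSF3, had 92.8, 88.9 and 86 FPKM in IGF2BP1-NC and 56.3, 61.3 and 58.6 FPKM in IGF2BP1-KD. The groups were again far apart, and the fall of 34.6% had nearly the size of that of SRSF3 (log2 fold change -0.61, SE 0.058, edgeR adjusted p = 6.48e-05). Both calls held when any 1 library was left out. TRA2B, a sequence-specific splicing activator, had 58.6, 56.5 and 54.7 FPKM against 43.3, 47.3 and 48.2 FPKM. It was lower by a smaller amount (log2 fold change -0.30, SE 0.061, edgeR adjusted p = 0.00435). SRSF4 had 71.5, 82.3 and 77.7 FPKM against 66.7, 66.3 and 66.6 FPKM (log2 fold change -0.23, edgeR adjusted p = 0.028). Its IGF2BP1-KD libraries were nearly equal, but the call was lost, at an adjusted p of up to 0.107, without any library other than IGF2BP1-NC replicate 1.

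SRSF6 moved the other way, at 69, 72.7 and 74.3 FPKM in IGF2BP1-NC and 80.7, 85.9 and 89 FPKM in IGF2BP1-KD. All 3 IGF2BP1-KD libraries were higher (log2 fold change 0.23, SE 0.064, edgeR adjusted p = 0.0194), and the call was lost without IGF2BP1-KD replicate 2 (adjusted p = 0.0762) or replicate 3 (0.0712). SRSF1, the founding SR protein, had 111, 111 and 114 FPKM against 110, 113 and 115 FPKM. The groups overlapped, and the normal 95% interval of its log2 fold change ran from -0.11 to 0.11. SRSF2, the SR protein of nuclear speckles, had 112, 136 and 135 FPKM against 148, 144 and 143 FPKM, a difference that was not called (log2 0.17, edgeR adjusted p = 0.136). SRSF9, the most abundant of the family in IGF2BP1-NC, had 161, 181 and 177 FPKM against 177, 171 and 159 FPKM, and the groups overlapped. The log2 fold changes of SRSF8, SRSF10, TRA2A and SRSF5 were -0.082, -0.048, -0.040 and -0.024, and none was called. Summed over the family, these genes took 0.335% to 0.345% of counts in IGF2BP1-NC and 0.310% to 0.322% in IGF2BP1-KD.

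U1 snRNP genes had the lowest class median. Of 7 tested, 4 were lower and 3 were not called (all tested genes: 14.5% lower, 13.7% higher). The median log2 fold change of the class was -0.27. The 3 genes of the U1-specific proteins were each lower. SNRPA, which encodes the A protein of U1, bound to a stem-loop of U1 RNA (chromosome 19: 40751203 to 40765389), had 101, 99.5 and 99.7 FPKM in IGF2BP1-NC and 71, 72.1 and 64.9 FPKM in IGF2BP1-KD. Its IGF2BP1-NC libraries were nearly equal, and the transcript fell by 31.3% (log2 fold change -0.54, SE 0.062, edgeR adjusted p = 0.000175).

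SNRPC, encoding the C protein of U1, which contacts the 5′ splice site duplex, had 194, 224 and 205 FPKM against 171, 171 and 163 FPKM. The groups did not overlap (log2 fold change -0.32, SE 0.069, edgeR adjusted p = 0.00664). SNRNP70, encoding U1-70K, the partner of SR proteins on U1, had 136, 145 and 141 FPKM against 126, 118 and 109 FPKM (log2 fold change -0.27, SE 0.069, edgeR adjusted p = 0.0148). All 3 IGF2BP1-KD libraries were lower, but the call was lost, at an adjusted p of 0.0564 to 0.0603, without IGF2BP1-NC replicate 2, IGF2BP1-KD replicate 2 or IGF2BP1-KD replicate 3. PRPF40B, a U1-associated gene expressed at a low level, had 1.8, 1.2 and 1.17 FPKM against 0.793, 0.794 and 0.824 FPKM. IGF2BP1-NC replicate 1 stood well above the other two, and the log2 fold change was -0.80 with an SE of 0.19 (edgeR adjusted p = 0.00906). RBM25, another U1-associated gene, had a log2 fold change of 0.014 and was not called (edgeR adjusted p = 0.899). The U1 genes together took 0.144% to 0.148% of counts in IGF2BP1-NC and 0.123% to 0.131% in IGF2BP1-KD.

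Of 21 tested U2 snRNP genes, 4 were lower, 0 were higher and 17 were not called, with a class median of -0.073. Among all tested genes, 14.5% were lower and 13.7% were higher. SNRPA1, encoding the A′ protein of U2 (chromosome 15: 101281510 to 101295248), had 91.6, 86.7 and 84.6 FPKM in IGF2BP1-NC and 70.1, 66.8 and 59 FPKM in IGF2BP1-KD. The groups were well separated (log2 fold change -0.43, SE 0.076, edgeR adjusted p = 0.00204). SNRPB2, which encodes its binding partner, the B″ protein of U2, lay on the other side, at 26.7, 27.3 and 29.2 FPKM against 31.8, 32.7 and 31.3 FPKM. That difference of 0.19 did not reach the threshold (edgeR adjusted p = 0.0667). It was called by library size (adjusted p = 0.0481), upper-quartile factors (0.0340) and each limma fit on log2 FPKM (0.0301 to 0.0473).

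CHERP and U2SURP encode U2-associated proteins that are found together with the U2 snRNP. CHERP had 42.7, 42.6 and 44.5 FPKM against 34.3, 31.6 and 34.3 FPKM (log2 fold change -0.38, SE 0.061, edgeR adjusted p = 0.00115). U2SURP had 48.2, 43.8 and 42.7 FPKM against 37.5, 38.3 and 34.2 FPKM (log2 fold change -0.30, SE 0.067, edgeR adjusted p = 0.00712). Both were lower in every IGF2BP1-KD library. SF3A2, a subunit of the SF3a complex, had 81.8, 74.9 and 76.3 FPKM against 67.8, 61.7 and 65.8 FPKM (log2 fold change -0.27, edgeR adjusted p = 0.00973), and the call was lost without IGF2BP1-KD replicate 2 (adjusted p = 0.0573). SF3B1, the SF3b scaffold at the branch point, was not called, and the interval of its log2 fold change ran from -0.089 to 0.147. SF3B3 had 51.4, 49.5 and 56.5 FPKM against 59.6, 60 and 59.8 FPKM, just short of the threshold (0.18, edgeR adjusted p = 0.0602). It was called in several settings, upper-quartile factors (adjusted p = 0.0250) and the fit without IGF2BP1-NC replicate 3 (0.0232) among them. SF3B5, the most abundant U2 gene, had 242, 286 and 260 FPKM against 252, 241 and 224 FPKM. Its groups overlapped (-0.15, edgeR adjusted p = 0.17), and it was called without IGF2BP1-NC replicate 1 (-0.22, adjusted p = 0.0237). U2AF2, the large subunit of the factor that binds the polypyrimidine tract, had a log2 fold change of 0.18 (edgeR adjusted p = 0.116). The U2 genes together took 0.376% to 0.388% of counts in IGF2BP1-NC and 0.376% to 0.380% in IGF2BP1-KD, ranges that overlapped.

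U2AF1, the small subunit that reads the AG of the 3′ splice site, could not be read alone. Its counts were 216, 47 and 57 in IGF2BP1-NC and 54, 53 and 68 in IGF2BP1-KD, and IGF2BP1-NC replicate 1 alone was high. Counts of U2AF1L5, a near-identical copy, were 105, 155 and 156 against 155, 159 and 131, lowest in that same library. The sums were 321, 202 and 213 against 209, 212 and 199, so the sum too was highest in that library. The fitted log2 fold change of U2AF1 was -0.86 (SE 0.66, edgeR adjusted p = 0.387) and turned to 0.18 (adjusted p = 0.608) without IGF2BP1-NC replicate 1. Because the copies are near-identical, the values of each alone are uncertain.

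**Figure D1:**
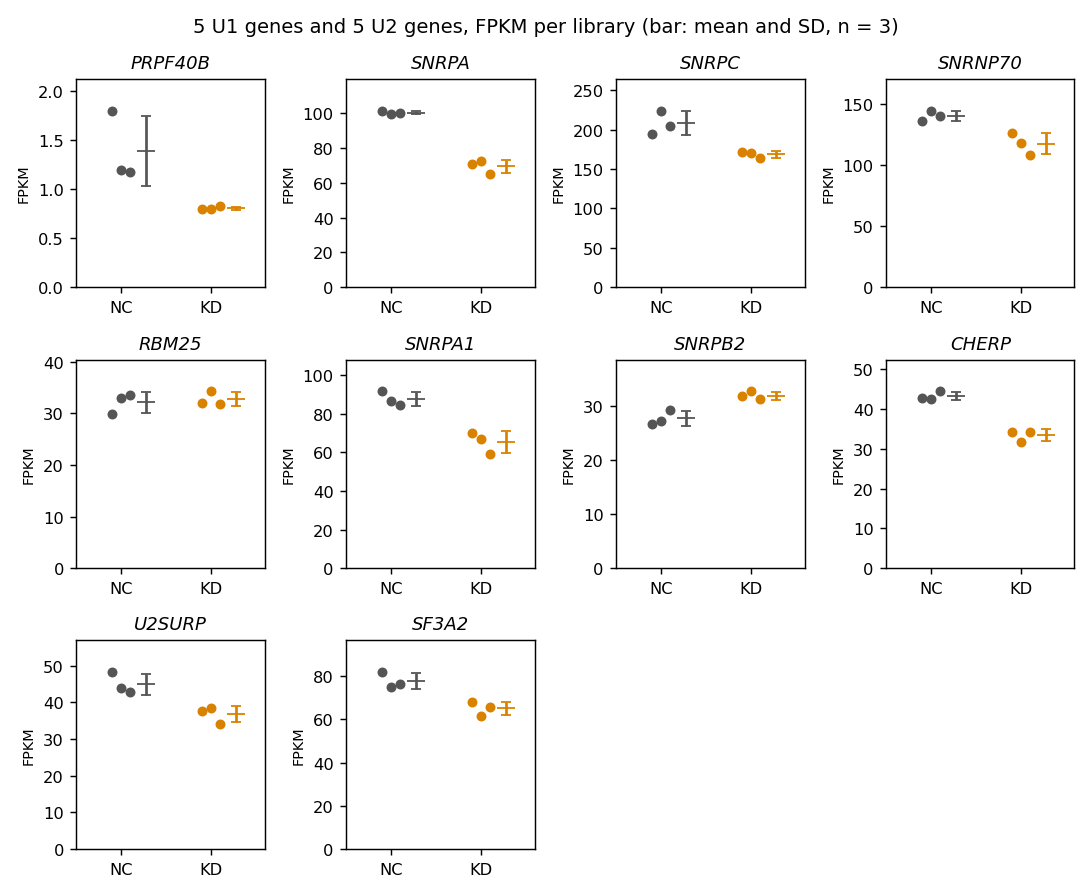
FPKM (vertical axes, from 0) of 5 U1 genes and 5 U2 genes in each library, IGF2BP1-NC in grey and IGF2BP1-KD in orange, with the mean and SD of 3 libraries. SNRPA and SNRPA1 are lower in every IGF2BP1-KD library, whereas SNRPB2 is at 31.3 to 32.7 FPKM there against 26.7 to 29.2 FPKM.

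The Sm and LSm proteins form the rings around spliceosomal RNAs. Of 7 tested genes of the Sm ring, 1 was lower and 6 were not called (all tested genes: 14.5% lower, 13.7% higher). SNRPF had 126, 156 and 162 FPKM against 114, 132 and 109 FPKM. The groups overlapped, and the call was the closest to the threshold of all (log2 fold change -0.34, SE 0.11, edgeR adjusted p = 0.0476). It was lost, at up to 0.149, when IGF2BP1-NC replicate 2 or 3 or IGF2BP1-KD replicate 1 or 3 was left out, and also with upper-quartile factors, limma-voom, a minimum of 10 counts in every library and each limma fit on log2 FPKM (adjusted p = 0.0532 to 0.108). SNRPE and SNRPD2 had log2 fold changes of -0.21 and -0.18 (edgeR adjusted p = 0.0574 and 0.0677). SNRPD2, the most abundant Sm gene, had 368, 412 and 373 FPKM against 340, 357 and 328 FPKM. The Sm genes together took 0.123% to 0.136% of counts in IGF2BP1-NC and 0.117% to 0.127% in IGF2BP1-KD, ranges that overlapped.

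Of 7 genes of the LSm ring of U6, 1 was higher and 6 were not called (all tested genes: 14.5% lower, 13.7% higher). LSM8, the subunit that distinguishes the nuclear ring from the cytoplasmic one, had 8.46, 7.61 and 7.37 FPKM against 8.67, 9.52 and 9.2 FPKM. The lowest IGF2BP1-KD library barely exceeded the highest IGF2BP1-NC one (log2 fold change 0.21, SE 0.067, edgeR adjusted p = 0.0344), and the call was lost, at up to 0.143, without IGF2BP1-NC replicate 2 or 3 or IGF2BP1-KD replicate 2 or 3. It was also lost with the replicate block (adjusted p = 0.0632) and in each limma fit on log2 FPKM (0.0650 to 0.0953). LSM3, the most abundant of the ring, had 164, 202 and 189 FPKM against 183, 179 and 184 FPKM, with overlapping groups.

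Called falls among the tri-snRNP and U5 genes were about as frequent as the 14.5% lower among all tested genes. No rise was called, against 13.7% higher among all tested genes. Of 11 genes of the U4/U6 snRNP and tri-snRNP, PRPF31 alone was called by edgeR, and of 6 U5 genes TXNL4A alone. PRPF31, which links U4/U6 to U5, had 51.5, 57.2 and 60.5 FPKM against 48.4, 45 and 44.4 FPKM. It was lower in every IGF2BP1-KD library (log2 fold change -0.31, SE 0.077, edgeR adjusted p = 0.0127), and the call was narrowly lost without IGF2BP1-NC replicate 3 (adjusted p = 0.0507) or IGF2BP1-KD replicate 2 (0.0567). TXNL4A, a small U5 protein, had 29.6, 35.7 and 31.8 FPKM against 27.9, 26.7 and 24.3 FPKM (log2 fold change -0.31, SE 0.091, edgeR adjusted p = 0.0261), and lost the call, at up to 0.109, without IGF2BP1-NC replicate 2 or 3 or IGF2BP1-KD replicate 2 or 3.

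PRPF8, the large protein at the catalytic centre, had 88.6, 86.4 and 103 FPKM against 93.1, 90.8 and 91.7 FPKM. Its groups overlapped, and the interval of its log2 fold change ran from -0.17 to 0.12. SNRNP200, the helicase that unwinds U4/U6 and the most abundant U5 gene, had 119, 118 and 132 FPKM against 132, 125 and 127 FPKM (0.040, edgeR adjusted p = 0.683). EFTUD2, the U5 GTPase, had 79.7, 82.9 and 82.6 FPKM against 75.2, 71.7 and 73.5 FPKM, and at -0.17 (edgeR adjusted p = 0.0517) lay just outside the threshold. SNU13, which binds the U4 k-turn, had 64.1, 72.3 and 69.8 FPKM against 71.5, 71.9 and 69.8 FPKM, with overlapping groups.

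Among 12 factors of activation and catalysis, 4 were lower and 1 was higher (all tested genes: 14.5% lower, 13.7% higher). AQR, an intron-binding helicase, had 29.3, 27.4 and 28.9 FPKM in IGF2BP1-NC and 22.7, 23.7 and 22.9 FPKM in IGF2BP1-KD. The groups were well apart (log2 fold change -0.32, SE 0.057, edgeR adjusted p = 0.00252). SNW1, a scaffold that also acts as a transcription coregulator, had 53, 46.7 and 45.5 FPKM against 40.6, 41.3 and 39.3 FPKM (log2 fold change -0.27, edgeR adjusted p = 0.0129). PPIL1, a peptidyl-prolyl isomerase and SNW1 partner, had 92.7, 90.8 and 89.7 FPKM against 78.9, 79 and 77.4 FPKM (log2 fold change -0.23, edgeR adjusted p = 0.0101).

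These 3 calls held with any 1 library left out. PQBP1, a polyglutamine-binding protein, had 77.8, 81.3 and 81 FPKM against 72.5, 72.6 and 66.8 FPKM (log2 fold change -0.19, edgeR adjusted p = 0.0425). That call was lost, at up to 0.147, without any library other than IGF2BP1-NC replicate 1, and also in 5 other settings, DESeq2 (adjusted p = 0.0647), upper-quartile factors (0.0672) and the replicate block (0.0748) among them. PRPF18, which acts at the second catalytic step, had 2.09, 1.99 and 2.07 FPKM against 2.53, 2.61 and 2.76 FPKM. It was the largest called rise among the members (log2 fold change 0.35, SE 0.073, edgeR adjusted p = 0.00563) and the only one of the 4 that held without each library in turn.

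The exon junction complex is laid on spliced mRNA, and the TREX complex takes the mRNA to the pore. Of 11 such genes and cap-binding genes, 3 were lower and 1 was higher (all tested genes: 14.5% lower, 13.7% higher). THOC2, the scaffold of the THO part of TREX, had 33.7, 28.7 and 29.6 FPKM against 26, 25.7 and 23.3 FPKM (log2 fold change -0.30, SE 0.072, edgeR adjusted p = 0.00972). Its partner THOC1 had 19.5, 19.4 and 19.5 FPKM against 17.2, 17.6 and 16.8 FPKM (log2 fold change -0.19, edgeR adjusted p = 0.0408). Both were lower in every IGF2BP1-KD library, but the THOC1 call was lost, at up to 0.118, without any library other than IGF2BP1-NC replicate 1, and also in 5 other settings, DESeq2 (adjusted p = 0.0809), upper-quartile factors (0.0702) and the replicate block (0.0762) among them.

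ACIN1, an exon junction protein, had 60.4, 61.5 and 65 FPKM against 52.9, 51.9 and 51.2 FPKM (log2 fold change -0.27, SE 0.060, edgeR adjusted p = 0.00692). RBM8A, a core subunit of that complex also called Y14, had 31.1, 34.3 and 36.2 FPKM against 38.6, 40.9 and 40 FPKM. It was higher in every IGF2BP1-KD library (log2 fold change 0.22, SE 0.070, edgeR adjusted p = 0.0354), and the call was lost, at up to 0.127, without IGF2BP1-NC replicate 2 or any 1 IGF2BP1-KD library. The genes of its binding partner, MAGOH and MAGOHB, had log2 fold changes of 0.16 and -0.28 and were not called (edgeR adjusted p = 0.107 and 0.0827). ALYREF, the TREX export adaptor and the most abundant of the class, had 134, 150 and 143 FPKM against 136, 141 and 129 FPKM, with overlapping groups.

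Of 12 hnRNP members, 10 were tested, 3 were lower and 7 were not called (all tested genes: 14.5% lower, 13.7% higher). RBMX, an hnRNP encoded on the X chromosome, had 158, 154 and 157 FPKM in IGF2BP1-NC and 120, 127 and 121 FPKM in IGF2BP1-KD. The groups were far apart (log2 fold change -0.36, SE 0.056, edgeR adjusted p = 0.00109). HNRNPC, which binds uridine tracts, had 194, 209 and 208 FPKM against 162, 173 and 171 FPKM (log2 fold change -0.28, SE 0.062, edgeR adjusted p = 0.00691). HNRNPM had 162, 181 and 185 FPKM against 144, 151 and 147 FPKM (log2 fold change -0.27, SE 0.070, edgeR adjusted p = 0.0152). Its call was lost, at up to 0.0663, without IGF2BP1-NC replicate 2 or 3 or IGF2BP1-KD replicate 1. The hnRNP members together took 0.743% to 0.773% of counts in IGF2BP1-NC and 0.694% to 0.748% in IGF2BP1-KD, ranges that overlapped.

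HNRNPA1, which often opposes SR proteins and was the most abundant member of all, had 966, 1013 and 996 FPKM against 1035, 1088 and 944 FPKM. The groups overlapped, and the interval of its log2 fold change ran from -0.0996 to 0.165. HNRNPK, HNRNPU and HNRNPA3 had log2 fold changes of -0.083, -0.079 and -0.074, and PCBP1 and RBMXL1 of 0.0066 and 0.025, none of them called. HNRNPA1L2 had -0.21 (edgeR adjusted p = 0.284), and it and RBMXL1 resemble HNRNPA1 and RBMX, with which reads may be shared. RBMXL2 and RBMXL3 had at most 9 and 15 counts in a library, and the readthrough gene ISY1-RAB43 had 0 in all, so these 3 members were not tested. RP9, the tested member outside the classes, had 12.3, 9.97 and 11 FPKM against 11, 12.4 and 12.6 FPKM, with overlapping groups.

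Among the 76 uncalled members, 46 lay below 0 and 30 above, and the groups did not overlap for 19 (25%, against 24.3% of all uncalled genes). The signs over all uncalled genes are not given here. Without adjustment, 30 members were lower at p under 0.05 (28.6%, against 20.7% of all tested genes and 24.3% of those of at least 5 log2 CPM) and 9 were higher (8.57%, against 20.1% and 19.2%). Depth was ample for most, as 87 tested members had at least 1000 counts in every library. Of the 29 called members, 21 share exon bases with another annotated gene, 18 of them with one on the opposite strand. The strand setting of the counting is not given in the sources used here, so such reads may not be told apart. The 21 include SNRPA, SNRPA1, CHERP, PRPF40B and PRPF18, while SRSF3 and SRSF7 share no exon bases. No such count over all genes is given for comparison.

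The direction of the calls was compared across 16 alternative settings. In each, the share of members called lower (17% to 33%) exceeded that of all tested genes (7.45% to 16.9%), and the share called higher (0.952% to 5.71%) lay below (8.32% to 16.3%). No background of at least 5 log2 CPM is given for these settings. They refit the same libraries, or all but 1 of them, so they are not separate supports. Of the 29 called members, 17 kept their call in all 6 fits without 1 library, 16 of them lower, and 15 kept it in all 16 settings. No such share over all called genes is given for comparison. On log2(FPKM + 1) without a filter, PRPF40B, RBM8A, SRSF4, THOC2 and TXNL4A also fell short (limma adjusted p = 0.0526 to 0.0638).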

How the data were processed

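RNA from 6 samples labelled IGF2BP1_KD and IGF2BP1_NC (3 each) was prepared by the authors with a stranded mRNA kit. Per the study's methods and the submitters' processing notes, the authors trimmed reads with Trimmomatic, aligned them to GRCh38 with HISAT2, made the deposited counts per gene with HTSeq and the deposited FPKM with Cufflinks. Versions, strand setting and annotation release are not given in the sources used here. The tables were matched by gene number. FPKM are levels, and tests used counts.

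All genes were fitted in edgeR 4.0.16 (R 4.3.3) with TMM factors, filterByExpr, a robust quasi-likelihood fit and a two-sided test, adjusted by Benjamini-Hochberg over 11994 genes. The factors spanned 0.987 to 1.01. Fold changes are log2, IGF2BP1_KD over IGF2BP1_NC. Each edgeR SE was worked back from the test, as the absolute log2 fold change over the square root of its F statistic. The intervals are 1.96 SE to either side and are narrower than the test implies. That of SRSF2, 0.013 to 0.334, left out 0 although its unadjusted edgeR p was 0.0574. Alternatives used DESeq2 1.42.0 and limma 3.58.1 on voom weights or log2(FPKM + 1) or log2(FPKM + 0.1), other factors and filters, a replicate block and the omission of each library. The tests were tested on simulated data.

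Members, classes and gene lists were chosen with earlier results of these data known. Genes with per-library values were, in each class, the 2 largest called rises and falls at 3 log2 CPM or more (19 genes) and the gene with the highest FPKM. The 10 other called members, and the uncalled members named beside them, were added after their values were seen, as were the intervals, the motifs, the choice of promoters and the 5 log2 CPM background. Some members are counted in the totals but their own values are not reported here. Promoters are from RefSeq (GRCh38.p14), positions likewise, and exon overlaps from GENCODE 44.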

Additional observations from a re-analysis of the deposited data

How the results depend on the processing

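Of 464 refitted values of the 29 called members, none changed sign, 397 stayed past the threshold and 67 fell short of it. Because these members were picked by their calls in the same libraries, the kept signs were largely set by that choice. The count of higher members ranged from 1 to 5 with 1 library left out, where 9.42% to 15.8% of all tested genes were higher. Over every row with the KEGG term, 11 of 129 tested genes were higher and 31 lower, beside 13.7% and 14.5% of all tested genes. The rule's exclusions thus mattered to the rises, as 4 of 105 members were higher. The replicate numbers were used as a block, although same-numbered libraries did not deviate together (r = -0.052, 0.036 and -0.11). The replicate block gave 3 higher and 24 lower members, beside 11.8% higher and 12.5% lower among all tested genes. Changes of sign were seen in uncalled members. With 1 library left out, the log2 fold change ran from -0.014 to 0.090 for HNRNPA1, -0.13 to 0.035 for LSM3, -0.044 to 0.051 for PCBP1, -0.063 to 0.067 for PRPF8, -0.047 to 0.056 for RBM25, -0.025 to 0.070 for RBMXL1, -0.022 to 0.080 for SNU13, -0.016 to 0.022 for SRSF1, -0.10 to 0.0052 for SRSF10, -0.056 to 0.013 for SRSF5, -0.10 to 0.00052 for SRSF9, -0.083 to 0.021 for TRA2A, -1.21 to 0.18 for U2AF1 and -0.059 to 0.21 for U2AF1L5. SRSF1 also became 0.011 by library size, 0.030 by upper-quartile factors, 0.012 with at least 10 counts in every library and, on log2 FPKM, 0.010 with a pseudocount of 1 and 0.011 with 0.1. Upper-quartile factors turned PRPF8 to 0.0089 and SRSF5 to 0.0068, and no filter turned PCBP1 to -0.0027. The cause was not tested. Of the uncalled members refitted, 9 came past the threshold in some setting. Those lower were EFTUD2, MAGOHB, SNRPE, and, without IGF2BP1-NC replicate 1, SNRPD2 (-0.22) and SF3B5. Those higher were SF3B3, SNRPB2, U2AF1L4 and U2AF2. With 3 libraries a group, small differences remain within the spread.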

Other observations

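Splicing genes outside the KEGG members were counted in 5 lists, chosen with earlier results known, against backgrounds of 13.7% higher and 14.5% lower among all tested genes in the edgeR fit. Among 17 tested hnRNP genes outside the KEGG set, 6 were lower and 3 higher. HNRNPD, an AU-rich element binding protein, had 291, 327 and 334 FPKM in IGF2BP1-NC and 212, 220 and 200 FPKM in IGF2BP1-KD (log2 fold change -0.60, SE 0.073, edgeR adjusted p = 0.000249). Its groups were far apart. HNRNPUL2 had the largest called rise of the list, at 46.4, 40.5 and 44.4 FPKM against 55.9, 55.4 and 55.4 FPKM (0.33, edgeR adjusted p = 0.00258).

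Of 17 tested regulators of alternative splicing, 6 were lower, led by CELF2 (-0.46, edgeR adjusted p = 0.00116), and 1 was higher, MBNL3, at 0.0073 to 0.027 FPKM in IGF2BP1-NC and 0.082 to 0.15 FPKM in IGF2BP1-KD, a very low level. Of 9 tested kinases and phosphatases of SR proteins, 3 were higher, led by CLK3 (0.40, edgeR adjusted p = 0.00336), and 1 was lower, CLK2 (-0.28, edgeR adjusted p = 0.00918). Among 8 tested proteins of the minor spliceosome, which removes a rare class of introns, 1 was higher, PDCD7, at 11.6, 12.8 and 14.6 FPKM against 22, 22.8 and 22.9 FPKM (0.78, edgeR adjusted p = 0.000191). Of 10 SMN complex genes, which assemble Sm rings, 1 was higher, GEMIN6 (0.35, edgeR adjusted p = 0.0270).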
